A study of Homo sapiens with 6 samples.

Results

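The genes described here are the PIM kinases and the MYC family with its partners, 10 genes in all: PIM1, PIM2, PIM3, MYC, MYCN, MYCL, MAX, MXD4, MXI1 and MNT. All 10 were present among the 16655 genes of the deposited expression table, matched by gene symbol, and all 10 were among the 13002 genes that passed the filter on low counts. They were chosen with earlier results of these data known, around PIM1, which was selected on its adjusted p in the comparison of RfA1 with GFP, and the values of PIM1 are therefore a description and not independent evidence. RNA-seq was performed on HEK-293T, an established line from embryonic kidney transformed with adenovirus DNA and given the large T antigen of SV40, to see how transcription responds to reflectin A1 (RfA1), a squid protein of the light-reflecting iridocytes. Control cells (n = 3 libraries) were transfected with the GFP vector and RfA1 cells (n = 3) with the vector for GFP-tagged RfA1, both by a lipid reagent, and cells of both groups were harvested 24 h later according to the labels. Expression was transient, so that each library mixed transfected and untransfected cells of a single line, and a change in fewer cells cannot be told apart from a smaller change in all of them. No label states whether the replicates came from separate cultures, and the p-values measure the spread between these libraries only.

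PIM kinases are serine/threonine kinases that are active as soon as they are translated, and so their activity follows the amount of their mRNA and protein. Cytokine receptors induce them through Janus kinases and STAT factors, and they phosphorylate proteins of cell survival, translation and the cell cycle. MYC, MYCN and MYCL are transcription factors that bind E-box DNA, with CACGTG as the preferred core, as heterodimers with MAX. MXD4, MXI1 and MNT compete for MAX and recruit SIN3 corepressors to the same sites. PIM1 and PIM2 cooperate with MYC in lymphoma, and PIM kinases phosphorylate MYC and lengthen its half-life.

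The start regions of 4 members are shown because they set the E-box, which is the site of the MAX dimers, beside the base composition of the PIM genes. The set of RefSeq start regions used here (GRCh38.p14) held 12 for 9 of the 10 members. It had no entry for MYC, which does not mean that RefSeq lacks one. The 250 bases before each start were searched on both strands. The E-box CACGTG was found in MXD4 and MNT, with its first base at -238 and -193, and in 6.34% of the 35116 regions of the same length. The STAT motif TTCNNNGAA (6.57% of regions), the cAMP response element TGACGTCA (1.65%) and the AP-1 motif TGANTCA (6.57%) were not found in any of the 12, and no matches overlapped. The regions of PIM1 and PIM3 held 79.6% and 82.0% G and C, above 96.3% and 98.3% of all regions, whose median was 58.0%. That of PIM2 held 61.2%. Of the other members, MNT held 78.0% (above 94.3% of regions), MYCL 74.4% and MXD4 70.4%. The regions of MAX, MXI1 and MYCN held 55.6% to 76.4%, so a high content was not particular to the PIM genes. PIM1 is printed from chr6:37169902-37170151 (plus strand), PIM2 from chrX:48919025-48919274 (minus strand), MXD4 from chr4:2262295-2262359 (minus strand) and MNT from chr17:2401119-2401310 (minus strand), 5′ to 3′, all before the gene as annotated and so shortened for MXD4 and MNT. The E-box is in capitals.
PIM1: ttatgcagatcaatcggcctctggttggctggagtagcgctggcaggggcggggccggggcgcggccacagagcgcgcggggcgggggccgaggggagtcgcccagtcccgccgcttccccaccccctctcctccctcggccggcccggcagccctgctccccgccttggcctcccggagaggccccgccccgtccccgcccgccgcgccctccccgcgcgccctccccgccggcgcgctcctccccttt
PIM2: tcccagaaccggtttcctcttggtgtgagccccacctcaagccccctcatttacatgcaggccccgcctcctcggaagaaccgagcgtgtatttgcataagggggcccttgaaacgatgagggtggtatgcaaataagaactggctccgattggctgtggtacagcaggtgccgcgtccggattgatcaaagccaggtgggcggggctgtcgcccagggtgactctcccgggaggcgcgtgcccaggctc
MXD4: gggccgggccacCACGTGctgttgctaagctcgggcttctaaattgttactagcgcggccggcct
MNT: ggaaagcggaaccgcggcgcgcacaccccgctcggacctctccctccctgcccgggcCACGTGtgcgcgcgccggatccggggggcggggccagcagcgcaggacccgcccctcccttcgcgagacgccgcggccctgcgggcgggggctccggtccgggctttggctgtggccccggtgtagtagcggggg
In the GENCODE annotation (GRCh38) the PIM genes lie on separate chromosomes, PIM1 at chr6:37170203-37175426, PIM2 at chrX:48913182-48919024 and PIM3 at chr22:49960513-49964080. Exons of MYCN, MYCL, MAX, MXI1 and MNT overlap those of antisense genes, by 98 to 1065 bases, and the strand setting of the counting is not given in the sources used here, so that their reads cannot be told apart from antisense reads.

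The libraries held 10272306 to 11566284 estimated counts. Of 10 genes known to be expressed in HEK-293 lines, 8 were above 1 TPM (a level scaled by transcript length and library total) in every library, with VIM at 577.99 to 724.25 TPM, while PROM1 and STMN2 were at or near 0. The leukocyte marker PTPRC and the endothelial markers PECAM1 and CDH5 did not exceed 0.05 TPM. Summed over the 10 markers of other cell types, the level was 76.4 to 79.5 TPM in GFP and 54.8 to 68.9 TPM in RfA1 libraries, most of it HBA1 (36.6 to 61.8 TPM), and the part of these genes in the results was not tested. The libraries differed with the GC content of transcripts. The log2 level changed by -0.15 and -0.11 per 10% GC in RfA1 replicates 3 and 1 and by -0.038 in GFP replicate 1, but by 0.081, 0.091 and 0.13 in GFP replicate 3, RfA1 replicate 2 and GFP replicate 2. RfA1 replicate 2 thus lay with GFP replicates 2 and 3 in this slope. Values without that library are given below for the GC-rich members, PIM3 (67.1% GC), MXD4 (64.0%) and MNT (61.4%). They are also given for MXI1, the member with the lowest GC content (43.7%). Whether the slope accounts for the values of these genes was not tested.

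Per length, MYC and PIM3 were the abundant members. In GFP cells MYC had 257 ± 28.9 TPM (SD, n = 3), above 96.9% of the genes in the table, and PIM3 had 202 ± 2.20 TPM, above 95.99% of them. MXD4 followed with 50.3 ± 3.79 TPM and MAX, the shared partner, with 37.1 ± 1.20 TPM. MNT (24.6 ± 2.06 TPM), PIM2 (24.5 ± 1.85 TPM) and MXI1 (22.9 ± 0.946 TPM) were neighbours whose libraries overlapped. PIM1 (9.95 ± 0.239 TPM), MYCL (4.26 ± 0.123 TPM) and MYCN (1.29 ± 0.339 TPM) were the lowest, and each of the 3 was apart from its neighbours in every GFP library. In RfA1 cells the order was kept for the first 4 and the last 3 genes, and MXI1 (28.1 ± 3.09 TPM) stood above PIM2 and MNT. MXD4 (46.6 ± 6.41 TPM) and MAX (42.3 ± 2.92 TPM) then overlapped, and so did MXI1 and PIM2 (26.4 ± 2.48 TPM).

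**Figure D1:**
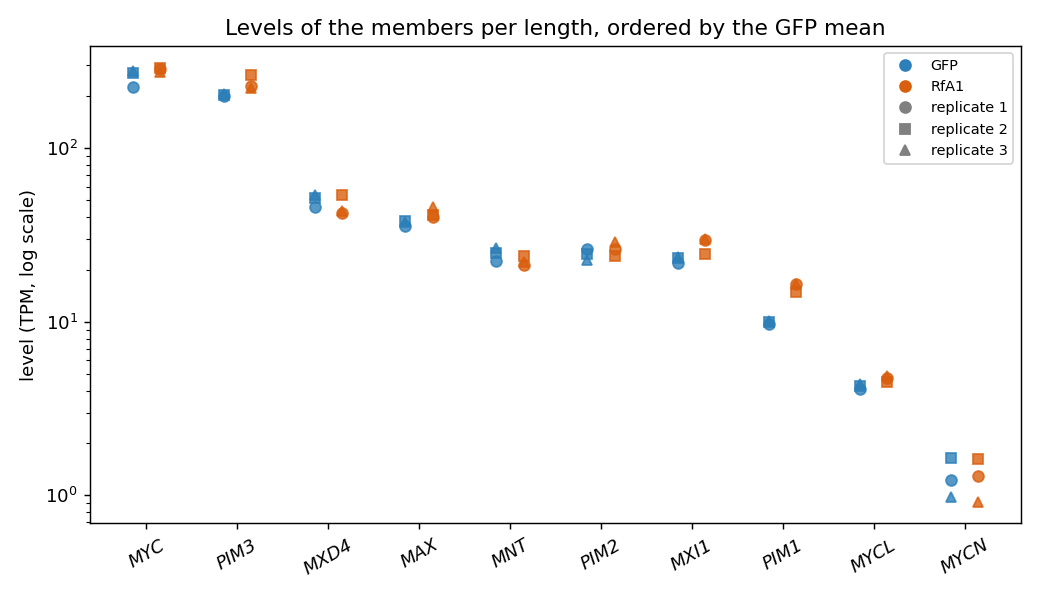
Level of each member in TPM (log scale) in the 3 GFP and the 3 RfA1 libraries, with genes ordered by their GFP mean and a symbol for each replicate number. MYC and PIM3 lie at 199.96 TPM or more in every library, and PIM1 is the gene whose RfA1 libraries (14.79 to 16.61 TPM) stand clearest above its GFP libraries (9.68 to 10.14 TPM).

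The MYC proteins and the PIM kinases were each dominated by 1 gene, and among the antagonists MXD4 only held the largest share. MYC made up 97.9% ± 0.221 (SD, n = 3) of the summed TPM of the MYC proteins in GFP cells and 97.9% ± 0.012 in RfA1 cells. PIM3 made up 85.4% ± 0.723 of the summed PIM level in GFP cells and 84.8% ± 2.23 in RfA1 cells. The share of PIM1 was 4.10%, 4.24% and 4.28% in GFP and 6.10%, 4.86% and 6.22% in RfA1 replicates 1, 2 and 3. The summed PIM level was 236 ± 0.594 TPM in GFP and 281 ± 20.7 TPM in RfA1 cells, and most of that difference was in PIM3. MYC exceeded MAX 6.92 ± 0.596 times in GFP and 6.76 ± 0.616 times in RfA1 cells. MXD4 held 51.0%, 51.7% and 51.6% of the antagonist level in GFP libraries, and 45.3%, 52.7% and 45.6% in RfA1 replicates 1, 2 and 3, so that in RfA1 replicate 2 it was nearer to the GFP libraries and slightly above them. The MNT share of that library, 23.4%, lay with the other RfA1 libraries (22.8% and 23.0%) and below the GFP libraries (24.8% to 25.6%).

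Of the PIM kinases, PIM1 was higher in RfA1 cells, PIM2 was level and PIM3 was raised most in 1 library. PIM1 (Gene ID 5292) was at 16.9, 18.4 and 18.1 CPM (counts scaled to a common library total) in GFP replicates 1, 2 and 3 and at 27.6, 27.1 and 27.5 CPM in the RfA1 replicates. The lowest RfA1 library lay above the highest GFP library, and the means were 17.8 ± 0.804 and 27.4 ± 0.281 CPM (SD, n = 3 each). The fold was 1.54 (95% interval 1.33 to 1.78), a log2 fold change of 0.62 with a standard error (SE) of 0.096. PIM1 held rank 10 by p among the 10 genes that passed edgeR's quasi-likelihood test at an adjusted p of 0.05, which is the call it was chosen for. That call was lost, with a log2 fold change from 0.58 to 0.65, when any 1 library other than RfA1 replicate 2 was left out (adjusted p from 0.140 to 0.365 in edgeR's test), and with upper-quartile scaling, with the total library size alone and with limma on log2(TPM + 1) (adjusted p = 0.0523, 0.0510 and 0.112). Its fold changes over all 15 alternatives lay between 0.58 and 0.70 on the log2 scale.

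PIM2 (Gene ID 11040), a kinase best known from lymphoid cells, was at 34.1, 33.6 and 29.9 CPM in GFP and 32.7, 32.6 and 35.6 CPM in RfA1 replicates 1, 2 and 3. The groups overlapped, and the log2 fold change of 0.047 (SE 0.095, adjusted p = 0.834 in edgeR's test) had a 95% interval of the fold from 0.895 to 1.19. PIM3 (Gene ID 415116), the paralog expressed in many solid tissues, was at 263, 279.6 and 275 CPM in GFP and 287, 367 and 277 CPM in RfA1 replicates 1, 2 and 3. RfA1 replicate 2 was far above the rest, and RfA1 replicate 3 lay below GFP replicate 2. Its log2 fold change was 0.19 (SE 0.10, adjusted p = 0.431 in edgeR's test), and without RfA1 replicate 2 it was 0.049 (adjusted p = 0.643). In TPM the groups did not overlap, with 199.96, 201.46 and 204.3 TPM in GFP and 227.73, 265.81 and 221.61 TPM in RfA1 libraries. Once the dependence on transcript GC content was removed from every library, the levels were 280.03, 241 and 242 CPM in GFP and 334, 319 and 338 CPM in RfA1 libraries. The log2 fold change was then 0.38 (SE 0.062, adjusted p = 0.00383 in edgeR's test), in a fit that called 1.56% of all genes. The adjusted p of PIM3 ranged from 3.15e-05 to 0.769 over the 15 alternatives, and it passed in 2 of them, both with the GC correction. The GC content of its transcript was above that of 98.2% of the tested genes.

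**Figure D2:**
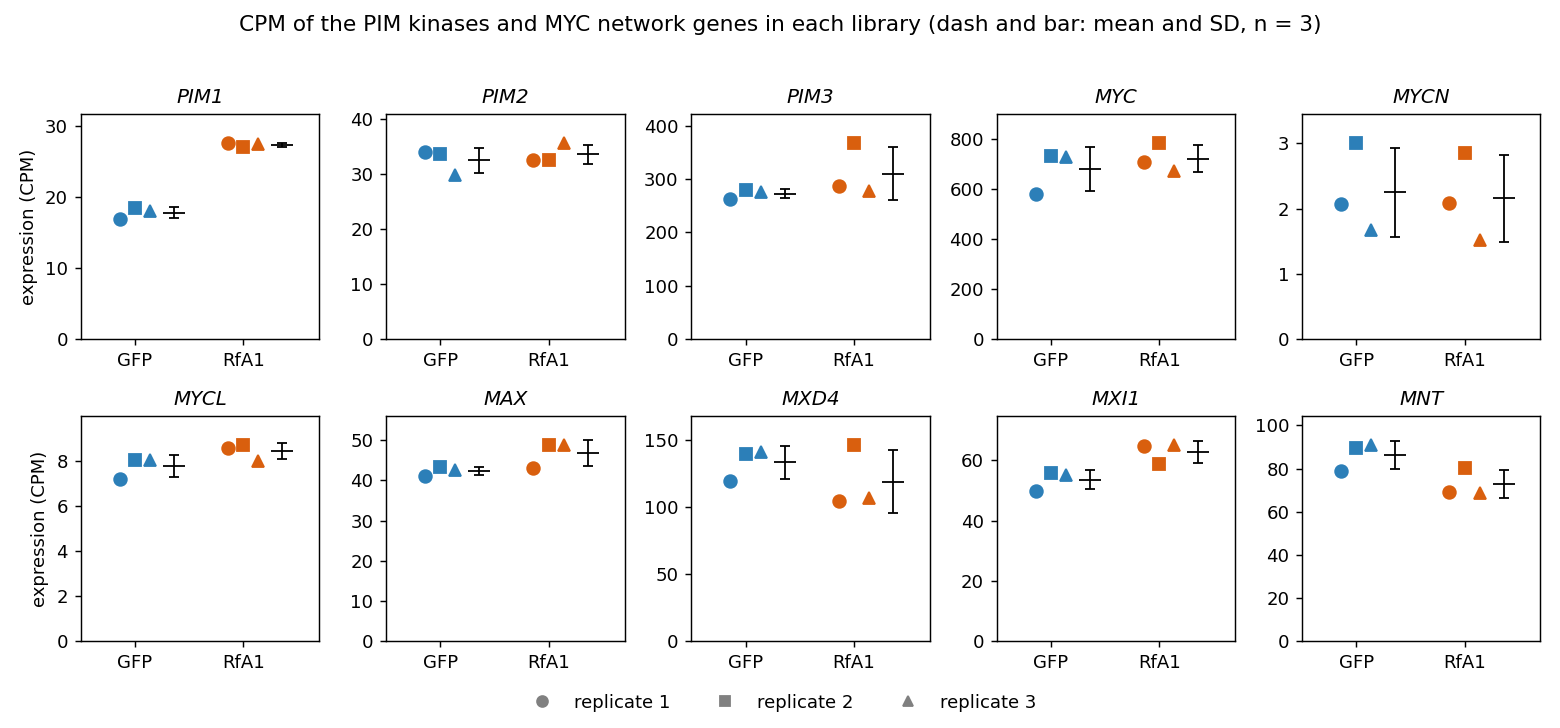
CPM of the 10 members in each library, from 0, with a symbol for each replicate number, and the mean and SD (n = 3) of each group as a dash and bar. The PIM1 libraries form separate groups, 16.9 to 18.4 against 27.1 to 27.6 CPM, whereas for MXD4 and PIM3 the RfA1 libraries spread apart, with replicate 2 highest.

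Among the MYC proteins, none passed the test. MYC (Gene ID 4609) was at 579, 732 and 728 CPM in GFP and 709, 782 and 674 CPM in RfA1 replicates 1, 2 and 3. The low library was GFP replicate 1, and the groups overlapped. The log2 fold change was 0.086 (SE 0.10, adjusted p = 0.704 in edgeR's test), with a 95% interval of the fold from 0.911 to 1.24, and it was -0.019 without GFP replicate 1. MYCL (Gene ID 4610) was at 7.20, 8.03 and 8.03 CPM in GFP and 8.55, 8.67 and 8.004 CPM in RfA1 libraries, a log2 fold change of 0.12 (SE 0.13, adjusted p = 0.688 in edgeR's test). MYCN (Gene ID 4613), the paralog of neural and embryonic tissue, had 16 to 34 counts per library, at 2.07, 3.001 and 1.68 CPM in GFP and 2.09, 2.86 and 1.52 CPM in RfA1 libraries. Both groups covered nearly the same range, and the log2 fold change was -0.060 (adjusted p = 0.938 in edgeR's test). The 95% interval of the fold was wide, 0.611 to 1.51, so that these libraries do not settle changes within it. MAX (Gene ID 4149), without which the MYC proteins do not bind DNA, was at 41.2, 43.3 and 42.6 CPM in GFP and 43.0, 48.7 and 48.7 CPM in RfA1 libraries. RfA1 replicate 1 lay among the GFP libraries, and the log2 fold change was 0.14 (SE 0.089, adjusted p = 0.461 in edgeR's test). The adjusted p of MAX was 0.237 to 0.862 over the alternatives.

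The antagonists did not move as 1 group, and none passed the test. MXI1 (Gene ID 4601) was at 49.8, 55.6 and 55.1 CPM in GFP and 64.8, 58.6 and 64.9 CPM in RfA1 replicates 1, 2 and 3. The RfA1 libraries lay above the GFP libraries, as those of 9.86% of all tested genes did, and replicate 2 was the nearest to them. Its log2 fold change was 0.23 (SE 0.088, adjusted p = 0.307 in edgeR's test, unadjusted p = 0.0226). MNT (Gene ID 4335), the antagonist expressed in most cells, was at 78.8, 89.7 and 90.8 CPM in GFP and 69.3, 80.4 and 68.8 CPM in RfA1 libraries. RfA1 replicate 2 lay above GFP replicate 1, and the log2 fold change was -0.25 (SE 0.094, adjusted p = 0.307 in edgeR's test, unadjusted p = 0.0226). MXD4 (Gene ID 10608), linked to differentiation, was at 119, 139.8 and 141 CPM in GFP and 104, 146 and 107 CPM in RfA1 libraries. RfA1 replicate 2 was the highest of all libraries and the other two the lowest, and the log2 fold change was -0.17 (SE 0.13, adjusted p = 0.548 in edgeR's test).

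For the antagonists the values changed with the GC correction and without RfA1 replicate 2. Without that library, the log2 fold changes were -0.34 for MXD4, -0.32 for MNT and 0.28 for MXI1, and all 3 passed (adjusted p = 0.00903, 0.0118 and 0.0272 in edgeR's test), in a fit that called 20.1% of all genes. With all libraries and the GC correction they were 0.0026, -0.095 and 0.16, and none passed (adjusted p = 0.991, 0.462 and 0.286). MXD4 was then at 124, 123 and 127 CPM in GFP and 118, 132 and 125 CPM in RfA1 libraries, and RfA1 replicates 1 and 2 lay below and above the GFP range. MNT was at 81.3, 80.4 and 83.7 CPM in GFP and 76.7, 74.7 and 78.5 CPM in RfA1 libraries, so that the RfA1 libraries lay below the GFP libraries, which they did not before the correction. MXI1 was at 61.1 to 61.4 CPM in RfA1 and 48.9 to 59.0 CPM in GFP libraries, with RfA1 still above. On these corrected levels RfA1 lay above GFP in 5 members (PIM1, PIM3, MYCL, MAX and MXI1), beside 12.1% of all genes. It lay below in 1 (MNT), beside 8.64%. PIM1 counts among the 5 although it was chosen in this same contrast. Over all alternatives the adjusted p was 0.00903 to 0.992 for MXD4, 0.0118 to 0.769 for MNT and 0.0272 to 0.766 for MXI1. Across the 6 libraries, the log2 CPM of MXD4 and MNT followed the GC slope of the library with Pearson's r of 0.97 and 0.93, against 0.35 for PIM3 and -0.49 for PIM1. The points share their libraries with the slope, which was computed over all genes. The slope was partly tied to the group, with its lowest values in RfA1 replicates 3 and 1 (-0.15 and -0.11 per 10% GC). The correction therefore also acts on any group difference that follows GC content. A bias of the libraries and an effect of RfA1 cannot be told apart here, and neither was tested.

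**Figure D3:**
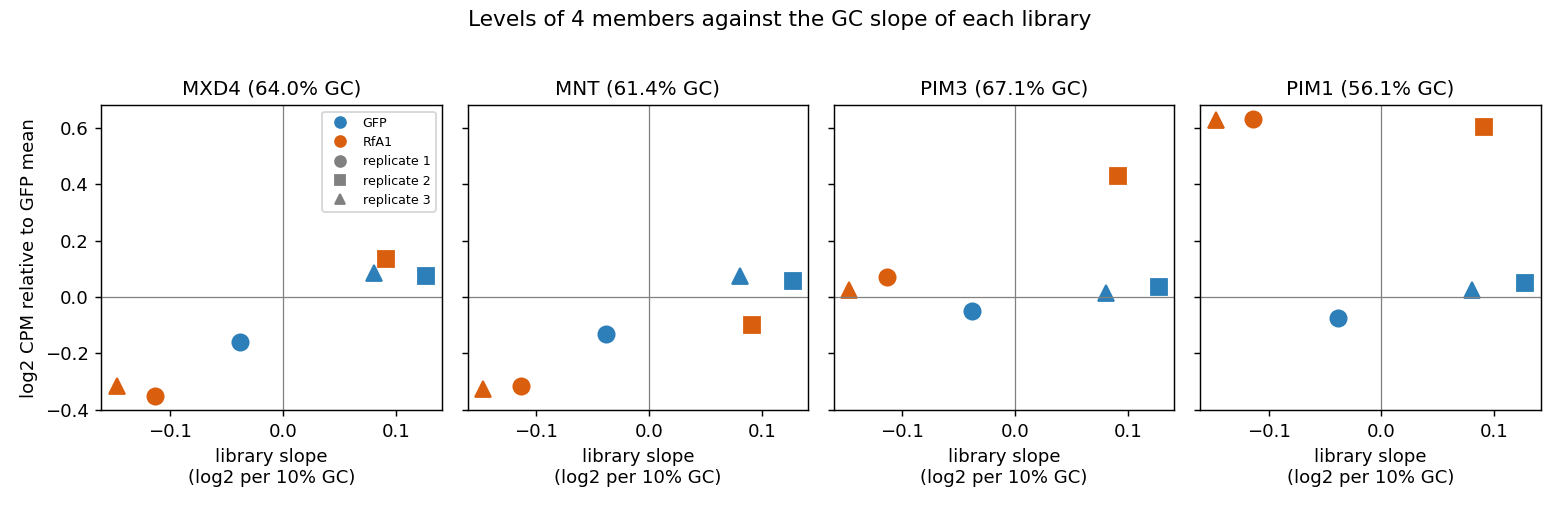
Log2 CPM of MXD4, MNT, PIM3 and PIM1 relative to the GFP mean against the slope of each library with transcript GC content (log2 per 10% GC), with colours for the groups and symbols for the replicate numbers. MXD4 and MNT are lowest in the 3 libraries with negative slopes (-0.15 to -0.038), and PIM1 is raised by 0.60 to 0.63 in RfA1 libraries on either side of 0.

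Over the 10 members, 1 gene (PIM1) passed the adjusted p of 0.05, against 0.0769% of all tested genes (0.0615% higher and 0.0154% lower), and nothing is read from this count because PIM1 was chosen for it. At an unadjusted p of 0.05 there were 3 members, PIM1, MXI1 and MNT, where 13.9% of all tested genes passed. PIM1, chosen on its adjusted p, was bound to be among these. It is also part of the counts of positive and of non-overlapping members that follow. The log2 fold change was positive in 7 and negative in 3 members, with a median of 0.10 beside -0.0024 for all tested genes. With the GC correction MYCN and MXD4 turned, to 9 positive and 1 negative, and the median of the members was 0.15. In TPM, the RfA1 libraries lay above the GFP libraries for 5 members (PIM1, PIM3, MYCL, MAX and MXI1), as for 9.29% of all genes, and below them for 0 members, beside 6.15% of all genes. In CPM the groups did not overlap for 2 members, PIM1 and MXI1, both with RfA1 above, beside 17.9% of all genes (9.86% above and 8.01% below). The median of all tested genes was 0.045 on the log2(TPM + 1) scale, 0.048 above that in CPM.

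**Figure D4:**
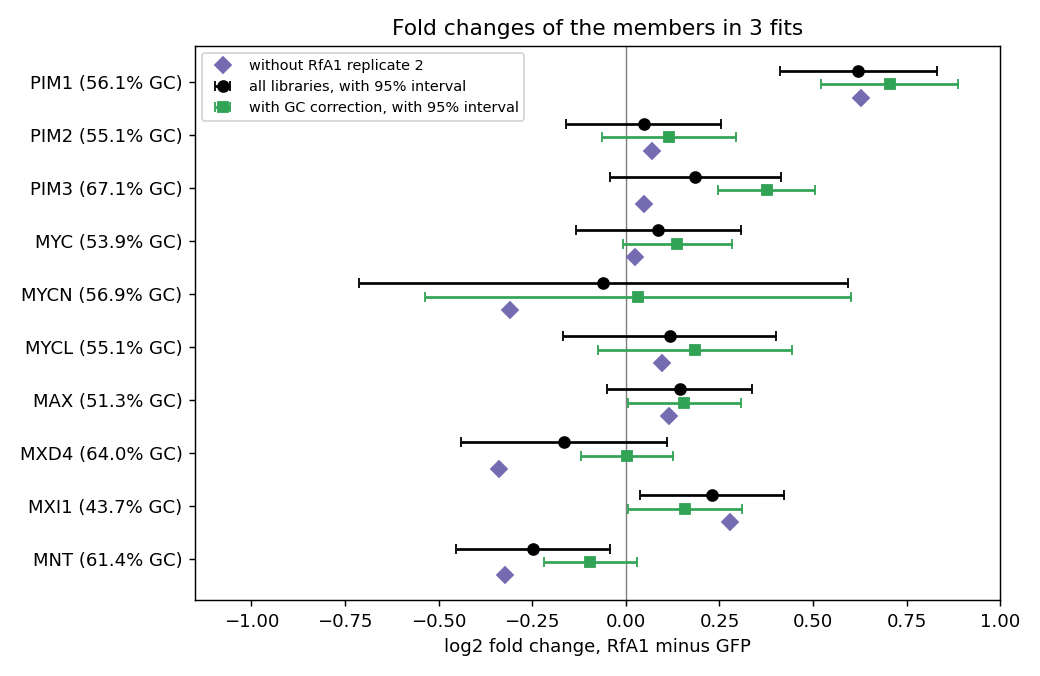
Log2 fold change (RfA1 minus GFP) of each member with its 95% interval from all 6 libraries (circles) and with the GC correction (squares), and without RfA1 replicate 2 (diamonds), with the transcript GC content beside the gene. PIM1 stays between 0.62 and 0.70 in these fits, PIM3 moves from 0.049 to 0.38 and MXD4 from -0.34 to 0.0026.

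The genes around PIM and MYC were grouped into 6 lists, written from general knowledge of gene function with earlier results of these data known, and the 10 members were left out of them. With edgeR, 0 of the listed genes passed after adjustment, and 0 with DESeq2. Of the JAK-STAT pathway that induces PIM genes, 26 of 30 genes were tested, 1 was higher and 1 lower at an unadjusted p of 0.05, and the median log2 fold change was 0.037. For comparison, 7.3% of all tested genes were higher and 6.64% lower at that p. The Janus kinase TYK2 was measured at 135 ± 7.51 CPM in GFP against 112 ± 10.98 CPM under RfA1 (SD over 3 libraries, as for the genes that follow), a log2 fold change of -0.28 (SE 0.090, adjusted p = 0.266 in edgeR's test). LIFR, a receptor subunit of the interleukin 6 family, and PTPN2, a phosphatase that turns off Janus kinases, had log2 fold changes of 0.37 and 0.23 (adjusted p = 0.324 and 0.369 in edgeR's test).

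Of the PIM substrates and partners, all 30 were tested, and the median log2 fold change was 0.011. At an unadjusted p of 0.05, 5 were higher and 2 lower, beside 7.3% and 6.64% of all tested genes. CDKN1A, the cell cycle inhibitor p21, which is phosphorylated by PIM1 and repressed by MYC, had 25.7 ± 3.46 CPM in GFP and 33.2 ± 0.475 CPM in RfA1 cells. The log2 fold change was 0.37 (SE 0.11, adjusted p = 0.250 in edgeR's test), and after the GC correction 0.49 (adjusted p = 0.00872). The fit with the GC correction called 1.56% of all tested genes. NOTCH1, a receptor of cell fate decisions named after its values were seen, also passed with that correction (log2 fold change 0.33, adjusted p = 0.0117), against 0.16 (adjusted p = 0.568) without it. CXCR4, a chemokine receptor whose surface level depends on PIM1, had 4.68 ± 0.155 and 7.05 ± 1.57 CPM, a log2 fold change of 0.59 (SE 0.19, adjusted p = 0.254 in edgeR's test). CDKN1B, the inhibitor p27, had 46.4 ± 2.54 and 55.0 ± 1.36 CPM, a log2 fold change of 0.24 (SE 0.085, adjusted p = 0.278 in edgeR's test).

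The other genes of the MAX and MLX network had a median log2 fold change of -0.076 over 23 tested genes. At an unadjusted p of 0.05, 0 were higher and 1 lower, beside 7.3% and 6.64% of all tested genes. That median was 0.020 with the GC correction and -0.15 without RfA1 replicate 2. The lower gene was MLXIPL, a glucose-responsive factor, with 47.7 ± 3.902 CPM in GFP and 37.1 ± 2.50 CPM in RfA1 cells and a log2 fold change of -0.36 (SE 0.097, adjusted p = 0.221 in edgeR's test). MXD1, another antagonist, and SIN3A, the corepressor, had log2 fold changes of 0.26 and 0.17 (adjusted p = 0.400 and 0.426 in edgeR's test). Of the 23 genes that set MYC protein turnover, 3 were higher and 0 lower at an unadjusted p of 0.05, beside the same shares of all genes. Their median was 0.023, and it was -0.0082 with the GC correction and 0.088 without RfA1 replicate 2. FBXW7, the ubiquitin ligase subunit that marks MYC for degradation, had 24.2 ± 2.10 CPM in GFP and 33.7 ± 2.998 CPM in RfA1 cells. The log2 fold change was 0.48 (SE 0.11, adjusted p = 0.175 in edgeR's test), and after the GC correction 0.43 (adjusted p = 0.0158), where 1.56% of all tested genes were called. USP7, a deubiquitinase, and PPP2CA, the catalytic subunit of phosphatase 2A, had log2 fold changes of 0.26 and 0.19 (adjusted p = 0.267 and 0.326 in edgeR's test).

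Of the genes that MYC activates, 54 of 55 were tested, with 28 positive and 26 negative log2 fold changes and a median of 0.0037, which was 0.038 with the GC correction and -0.033 without RfA1 replicate 2. At an unadjusted p of 0.05, 11 were higher and 1 lower, beside 7.3% and 6.64% of all tested genes. RCL1, a factor of small ribosomal subunit assembly, had 49.5 ± 0.933 CPM in GFP and 61.2 ± 1.14 CPM in RfA1 cells, a log2 fold change of 0.31 (SE 0.079, adjusted p = 0.220 in edgeR's test). NIP7, a factor of ribosome assembly, and ODC1, the rate-limiting enzyme of polyamine synthesis, had log2 fold changes of 0.31 and 0.22 (adjusted p = 0.278 and 0.284 in edgeR's test). After the GC correction, RCL1 (adjusted p = 0.0239), ODC1 (0.0485) and PPAN (0.0261), a nucleolar protein named after its values were seen, passed in edgeR's test. The fit with that correction called 1.56% of all tested genes. Of the genes that MYC represses, 14 of 16 were tested, with 3 higher and 1 lower at an unadjusted p of 0.05 and a median of 0.098. CDKN1A and CDKN1B are among them, and so is TXNIP, an inhibitor of thioredoxin and of glucose uptake, with 22.7 ± 2.26 CPM in GFP and 30.5 ± 4.56 CPM in RfA1 cells and a log2 fold change of 0.43 (SE 0.13, adjusted p = 0.250 in edgeR's test). Without RfA1 replicate 2, 53 of the 165 listed genes passed (32.1%), in the fit that called 20.1% of all genes, and the lists were chosen with earlier results known.

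**Figure D5:**
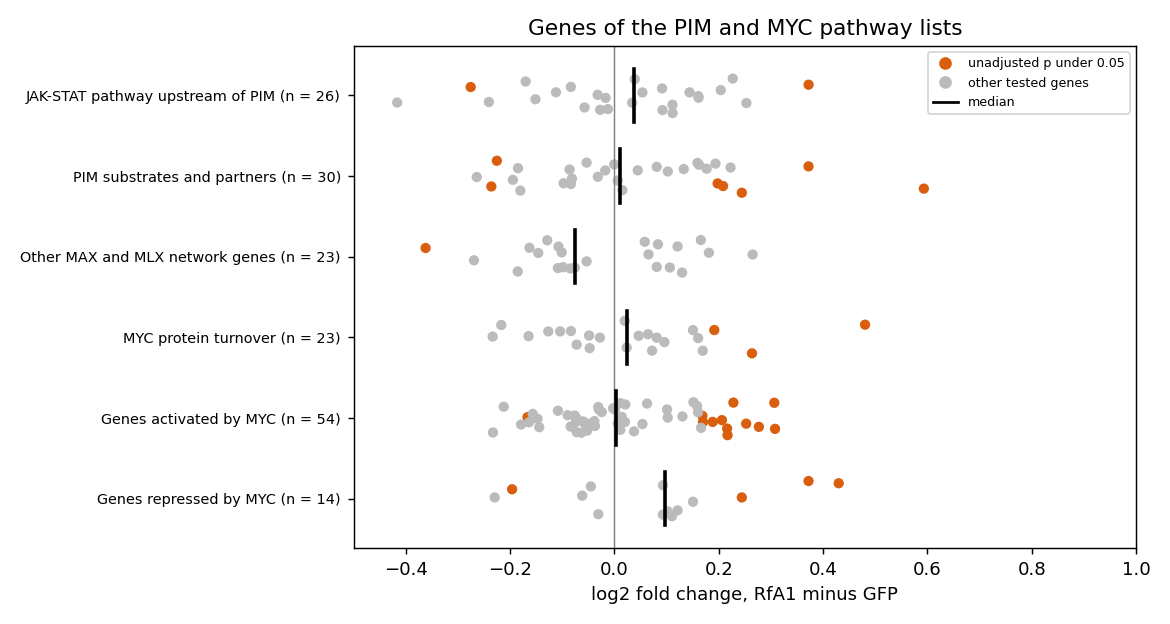
Log2 fold change (RfA1 minus GFP) of each tested gene in the 6 pathway lists, with the median of each list as a bar and genes at an unadjusted p under 0.05 in orange. The medians lie between -0.076 and 0.098, and the genes that MYC activates fall on both sides of 0.

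By Pearson's r of log2 CPM over the 6 libraries, the genes closest to PIM1 among 12283 whose mean log2 CPM reached 1 were GET1 (0.99), F3 (0.99), ADAMTS1 (0.99), GRB2 (0.99) and PARD6B (0.99). With 6 libraries in 2 groups, r mostly reflects the step between the groups and not its size. F3, the tissue factor that starts coagulation, was at 2.88, 3.71 and 3.44 CPM in GFP and 6.28, 6.67 and 6.57 CPM in RfA1 libraries, a log2 fold change of 0.96 (SE 0.17, adjusted p = 0.0915 in edgeR's test). ADAMTS1, a secreted metalloproteinase, was at 87.5, 91.9 and 98.4 CPM in GFP and 133.9, 133.0 and 129 CPM in RfA1 libraries. Its step was close in size to that of PIM1, with a log2 fold change of 0.51 (SE 0.078, adjusted p = 0.0457 in edgeR's test). The genes closest to PIM1 were picked by likeness in the same libraries, and PIM1 was chosen for its difference between the groups. A step between the groups was therefore built in, and the adjusted p-values of these genes are a description and not independent evidence. GET1, a receptor for tail-anchored proteins at the endoplasmic reticulum, and GRB2, an adaptor of growth factor receptors, had the smaller log2 fold changes of 0.13 and 0.12. PARD6B, a cell polarity protein, was at 1.80 to 2.38 CPM in GFP and 3.72 to 4.004 CPM in RfA1 libraries. Within the members, r with PIM1 was highest for MXI1 (0.90) and lowest for MNT (-0.74), with the same limit. The level of MNT also followed the GC slope of the libraries (r = 0.93).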

How the data were processed

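RNA was sequenced from 3 GFP and 3 RfA1 libraries, grouped by the sample labels. The authors deposited estimated counts without normalization, of which 7.39% to 8.02% per library were not whole, beside their TPM and FPKM. FPKM served only as an alternative for levels, and averages over replicates were not used. The submitters' processing notes name HISAT and GRCh38.p13; the counting tool and annotation are not given in the sources used here.

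Estimated counts were rounded, filtered by filterByExpr (minimum count 10, minimum total 15), scaled by TMM and tested in R 4.3.3 with the robust quasi-likelihood method of edgeR 4.0.16. Tests were two-sided, and p-values were adjusted by Benjamini-Hochberg over 13002 genes, with 0.05 as the threshold. Standard errors are the log2 fold change over the root of F. Alternatives used DESeq2 1.42.0, limma 3.58.1 (pseudocount 1), other scalings and filters, a replicate block, a GC correction (per library, a spline of 5 degrees of freedom on the GC content of GENCODE transcripts, with 98.3% of genes matched) and each library left out. The code was tested on simulated data. Figures used matplotlib 3.10.9. The depth, 10272306 to 11566284 counts, bounds the precision of low genes, and counting error is part of the test.

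The members, lists, tests and alternatives were chosen with earlier results of these data known. Besides the members, the text names 3 genes per list with the smallest p, as no listed gene passed, and the 5 genes most like PIM1. NOTCH1 and PPAN, which passed with the GC correction, are named outside this rule. No pair of libraries agreed within sampling noise (chi-square per degree of freedom from 1.92 to 17.3).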

Additional observations from a re-analysis of the deposited data

How the results depend on the processing

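The number of genes past the adjusted p, 10 (8 higher, 2 lower) in edgeR's test, was 6 (4 higher) with upper-quartile scaling, 20 (8 lower) without the filter, 4 (4 higher, 0 lower) with limma on log2(TPM + 1), 33 (17 higher, 16 lower) with DESeq2, 203 (146 higher, 57 lower) with the GC correction, 625 (309 higher, 316 lower) with the replicate block and 459 (306 higher, 153 lower) with both. With one library left out it was 0 to 2636 (0 to 1124 higher, 0 to 1512 lower), and RfA1 replicate 2 gave the highest count. Of the members, 1 passed in edgeR's test, 0 with upper-quartile scaling, with the total library size or with limma, 2 with the GC correction alone or with the block (PIM1 and PIM3), and 0 to 4 with one library left out. Of the 165 listed genes tested, 0 passed in edgeR's test, 9 with the replicate block, 6 with the GC correction, 11 with both and 0 to 53 with one library left out. Of all 13002 genes tested in the first 4 of these fits, 10, 625, 203 and 459 passed, and 0 to 2636 genes did with one library left out. The lists were chosen with earlier results known, and nothing is read from the counts of listed genes.

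The log2 fold change of PIM1, 0.62, was 0.61 with upper-quartile scaling, 0.64 with the total library size and 0.63 with limma, none past the threshold, and 0.58 to 0.65 with one library left out. Among the members, directions turned for PIM2 without GFP replicate 3 (-0.0094) and MYC without GFP replicate 1 (-0.019), for MXD4 with the GC correction (0.0026, and 0.0022 with the block), and for MYCN with the GC correction (0.033, and 0.026 with the block), without GFP replicate 2 (0.20) and without RfA1 replicate 3 (0.13). With one library left out these ranged up to 0.080 for PIM2 and 0.14 for MYC, and from -0.31 for MYCN. The cause was not tested. In the order of GFP levels, 7 of 9 pairs of neighbours were apart, as in FPKM, and 7 to 8 with one library left out, and the family shares of PIM1, PIM3, MYC and MXD4 moved by less than their SD under these settings.

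The labels do not say whether same-numbered libraries were handled together. The correlation between same-numbered libraries, after each group's mean was taken off, was 0.17 for number 1, 0.32 for number 2 and -0.14 for number 3, so that not every pair deviated together. With the replicate block the value of PIM1 was 0.62 (adjusted p = 0.00145 in edgeR's test), and no other member changed its side of the threshold.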
